A study of Mus musculus with 8 samples.

Results

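Heat shock proteins and their DnaJ cochaperones were followed in the soleus, a hindlimb muscle rich in slow and oxidative fibres, in control mice and in mice with a mutant dynamin 2 allele. Genes were taken by a rule on their symbols. The rule, compartments and lists below were chosen with earlier results of these data known, so counts over them describe these lists. The rule kept every protein-coding gene whose symbol starts with Hspa, Hspb, Hspd, Hspe, Hsph, Dnaja, Dnajb or Dnajc and a number. Symbols starting with Hsp90aa, Hsp90ab or Hsp90b and a number were also kept. This gave 71 of the 22880 gene identifiers in the count files. By the usual place of their proteins, 43 were assigned to the cytosol and nucleus, 13 to the endoplasmic reticulum (ER), 9 to mitochondria and 6 to other or unsettled places. Hspa14, whose symbol also matches, was not analysed here.

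RNA-seq was performed on the soleus of 4 control mice (Dnm2 +/+) and 4 Dnm2 +/K562E mice. All 8 were males aged 2 months on a C57BL/6 background, and each library came from 1 mouse. Dnm2 +/K562E mice carry 1 wild-type allele and 1 allele in which a lysine of dynamin 2, a GTPase that pinches off membrane vesicles, is exchanged for glutamate. The change was introduced at the endogenous locus by homologous recombination, so that it is present in every cell type of the muscle, and a whole muscle was ground for each library. Nothing but genotype is named as different between the groups, and the comparison asks which genes differ in the muscle of the mutant.

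Chaperones bind unfolded or newly made proteins and keep them from aggregating. HSP70 proteins do so in cycles driven by ATP: a DnaJ protein delivers the client and speeds ATP hydrolysis, and a nucleotide exchange factor, such as an HSP110 protein, then releases it. HSP90 takes over clients from HSP70, small heat shock proteins hold unfolded clients without ATP, and mitochondria and the ER each have an HSP70 of their own. In striated muscle small heat shock proteins are abundant and bind sarcomeric and cytoskeletal proteins, and mutations in HSPB1, HSPB8 and DNAJB6 are known causes of hereditary neuropathy or myopathy.

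The promoters of these genes are known for 2 kinds of elements, and windows that carry them are shown here for several members the results turn on. Heat shock factor 1 binds units of the letters GAA, alternating with TTC, with 2 bases between neighbours, and ATF6 binds the ER stress element, CCAAT and CCACG separated by 9 bases. RefSeq promoters (GRCm38.p6, from 250 bases before to 50 bases after the start site) were found for 57 of the 71 genes. In each line below the matched units or the whole matched element are in capitals, and every sequence is written 5′ to 3′ on the strand of its gene, with Hspd1-Hspe1 on the plus strand.
Hspd1-Hspe1: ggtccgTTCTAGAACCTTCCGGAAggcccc
Dnajb6: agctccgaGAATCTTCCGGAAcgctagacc
Hspa5: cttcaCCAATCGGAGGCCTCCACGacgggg
Hsp90b1: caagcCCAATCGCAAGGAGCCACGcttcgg
Dnajc3: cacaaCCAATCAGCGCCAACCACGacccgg
Hspb1: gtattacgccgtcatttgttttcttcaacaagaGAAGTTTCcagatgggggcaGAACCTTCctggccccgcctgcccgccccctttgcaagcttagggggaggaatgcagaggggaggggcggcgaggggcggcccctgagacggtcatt
Hspa1a: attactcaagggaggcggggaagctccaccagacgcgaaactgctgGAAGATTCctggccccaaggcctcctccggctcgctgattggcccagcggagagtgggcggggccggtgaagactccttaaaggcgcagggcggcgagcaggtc
Hspa1b: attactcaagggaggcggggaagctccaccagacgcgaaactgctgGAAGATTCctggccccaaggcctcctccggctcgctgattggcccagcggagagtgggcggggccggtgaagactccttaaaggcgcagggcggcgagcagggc

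The Hspd1-Hspe1 window lies at chr1:55088053-55088082, between the start site of Hspe1 and 1 of the listed start sites of Hspd1. These sites face away from each other and are 216 bases apart, so that both genes share 1 run of 4 alternating units. Another listed start site of Hspd1 lies beyond that of Hspe1. All 30 bases of this window lie in annotated exon, as do those of the Dnajb6 and Hspa5 windows. The Dnajb6 window is at chr5:29735844-29735873 (plus strand), that of Hspa5 at chr2:34772020-34772049 (plus strand), that of Hsp90b1 at chr10:86705632-86705661 (minus strand) and that of Dnajc3 at chr14:118937822-118937851 (plus strand). The 150 bases before the start site are shown for Hspb1 (chr5:135887769-135887918, plus strand), the called member with the highest fold change, and for Hspa1a (chr17:34972157-34972306, minus strand) and Hspa1b (chr17:34959239-34959388, minus strand), the classical stress-induced HSP70 genes. Hspa1a and Hspa1b differ at 1 of these 150 bases.

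A pair of facing units, GAANNTTC or TTCNNGAA, each of which reads the same on both strands, was present in the promoter of 16 of the 57 members (28.1%) and of 17.0% of all 27025 genes with a promoter. A run of 3 units, which contains such a pair, was present in 4 of 57 (Dnajb6, Hspd1, Hspe1 and Hsph1; 7.02%) and in 0.662% of all genes. The ER stress element, searched on both strands, was present in 3 of 57 (Hspa5, Hsp90b1 and Dnajc3; 5.26%) and in 0.137% of all genes. A gene was counted when any of its listed start sites had a match. Of the members called in the comparison below, 3 of 6 called higher with a promoter held a pair of units (Hspb1, Hspb8 and Hsph1) and none of the 4 called lower did. Of those that passed by adjusted p alone, 2 of 6 that were higher and 4 of 11 that were lower held a pair, Hspd1 and Hspe1 among the latter, and of those that did not pass 6 of 24. These are matches of letters in a window and no measurement of binding.

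Depth was between 33407430 and 48832814 counted reads per mouse. Levels are given as normalized CPM, that is read counts divided by the size of the library (CPM) and scaled by TMM factors, for mice 1 to 4 of each genotype in order, and as mean ± SD (n = 4). After a filter on low counts 63 of the 71 members and 14001 genes in all were tested, and every adjusted p below is from the quasi-likelihood test of edgeR with Benjamini-Hochberg adjustment over those 14001 genes. A gene passed at an adjusted p under 0.05, and it was called when its log2 fold change was also at least 0.58 in size. Log2 fold changes are of Dnm2 +/K562E over control and are given ± their standard error. Dnm2 itself was at 68.8, 68.5, 59.2 and 68.7 normalized CPM in controls and at 74.2, 76.1, 73.2 and 70.3 in Dnm2 +/K562E mice, a log2 fold change of 0.15 ± 0.065 (adjusted p = 0.0909). All 4 mutants lay above all controls, the difference did not pass except with library size alone (0.36, adjusted p = 0.00271, within a range from 0.00271 to 0.246), and as the mutation exchanges 1 codon this level does not check the genotype labels.

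One control stood apart, and not for these genes alone. Over genes in general, the chi-square per degree of freedom between control 1 and controls 2, 3 and 4 was 36.2, 41.6 and 55.2. Between the other controls it was 12.6, 23.8 and 35.0. Control 1 had the lowest value of the 4 controls for 33 of the 63 tested members. Among them were 23 of the 36 members of the cytosol and nucleus. Controls 2, 3 and 4 were lowest for 11, 4 and 15 members. Control 1 was also the highest control for 16 members, against 19, 14 and 14. Counts of lowest or highest mice over all genes were not made. The summed level of Hspa1a and Hspa1b was 26.0 normalized CPM in control 1, 81.7, 72.7 and 78.8 in the other controls, and 79.5, 60.5, 82.5 and 71.2 in Dnm2 +/K562E mice. Values without control 1 are therefore given beside members whose call or pass they alter. Among the mutants, mouse 2 was lowest for 29 of the 63 members and mouse 4 highest for 28.

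The muscle label was checked against Myh7, Myh2, Tnnt1, Tnni1, Myl2, Acta1, Ckm and Atp2a2, and all were abundant in every mouse. Their summed level was 55671, 60009.6, 63845 and 57422 normalized CPM in controls and 36380.2, 40339.8, 41365 and 38115 in Dnm2 +/K562E mice, Acta1 being the most abundant, and 7 of the 8 were lower at an adjusted p under 0.05. Markers of other cells moved too. All 7 macrophage markers (most abundant Csf1r) were called higher, from a sum of 90.8 ± 29.8 to 229 ± 48.6 normalized CPM, and all 7 fibroblast markers (most abundant Col3a1 over all mice, Dcn in controls) were called higher, from 3099 ± 566 to 6938 ± 833. Among endothelial markers (most abundant Cdh5) 5 of 6 passed as lower, from a sum of 962 ± 20.6 to 737 ± 49.95. Of 4 adipocyte markers (most abundant Fabp4, sums of 699 ± 169 and 587 ± 66.4 normalized CPM) none passed. No marker of these lists was at 0 in any mouse. In a whole muscle, fewer cells of a type and less RNA per cell cannot be told apart, and the part of these cell types in the chaperone results was not tested.

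Per length of exon, the most abundant of the 71 genes in the soleus were small heat shock proteins. Over all 8 mice Hspb7 was at 1100.5 normalized CPM per kb and Hspb6 at 943, followed by Hsp90ab1 at 356, Hspb1 at 337, Hspa8 at 310.0 and Hspb8 at 209. The small heat shock protein Cryab, which the choice by symbol does not include, was at 1063. The order differed between genotypes. In controls Hspb6 (1064) had a higher mean than Hspb7 (1007) and Hspa8 (299) than Hspb1 (207), and in mutants Hspb1 (467) had a higher mean than Hsp90ab1 (391). The ranges of Hspb7 and Hspb6 met in controls and were apart in mutants, and those of Hsp90ab1, Hspb1 and Hspa8 met over the 8 mice. Hspa9 led the mitochondrial members (98.4 normalized CPM per kb) and Hspa5 those of the ER (68.7), the latter followed by Hsp90b1 at 64.7, whose mice overlapped with those of Hspa5. The 71 genes together took 12141 ± 390.5 normalized CPM in controls and 12577 ± 692 in Dnm2 +/K562E mice, a difference within the spread of the mutants. Hspb7 alone made up 24.7% of that sum.

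**Figure D1:**
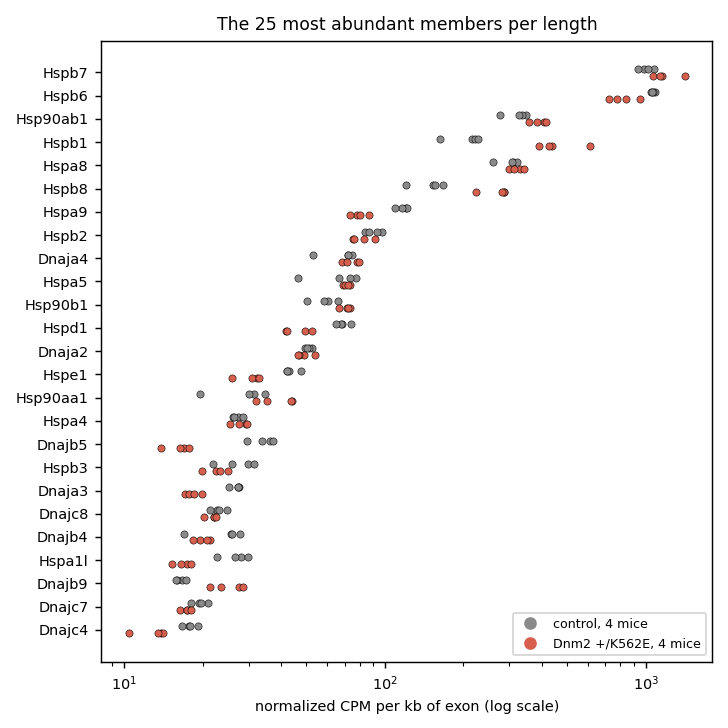
Level of the 25 members with the highest mean over 8 mice, in normalized CPM per kb of exon on a log axis; each point is 1 mouse. Hspb7 and Hspb6 lie above all other members in every mouse.

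The genotypes were then compared over all members and by compartment. By adjusted p, 14 members rose and 19 fell of the 63 tested, against 22.2% and 21.7% of all tested genes. With the fold threshold 6 were called higher (Hspb1, Hspb8, Hspb11, Hspa4l, Dnajb9 and Hsph1) and 4 lower (Dnajb5, Hspa12b, Hspa1l and Dnajc21), against 12.9% and 7.85%. The number called lower ran from 3 without mutant 2 to 9 without mutant 4, against 7.64% and 8.05% of all tested genes. The 4 mutants lay above all controls for 15 members and below them for 17, against 20.6% and 20.5% of all genes. The median log2 fold change was -0.044 over the members and 0.0074 over all tested genes. In mitochondria 9 of 9 members fell and none rose, in the ER 5 of 13 rose and none fell, and in the cytosol and nucleus 7 rose and 8 fell of 36. With library size as the only scaling, which moves the median of all genes to 0.22, 25 of the 63 members rose and 13 fell, and the calls were 9 higher and 2 lower. Of all tested genes 40.1% rose and 10.7% fell under that scaling, and 20.5% and 4.03% were called. By compartment, 6 of 9 then fell in mitochondria, 9 of 13 rose in the ER, and 14 rose and 5 fell of 36 in the cytosol and nucleus, where the balance thus depends on the scaling. The medians under that scaling were -0.31, 0.39 and 0.23.

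**Figure D2:**
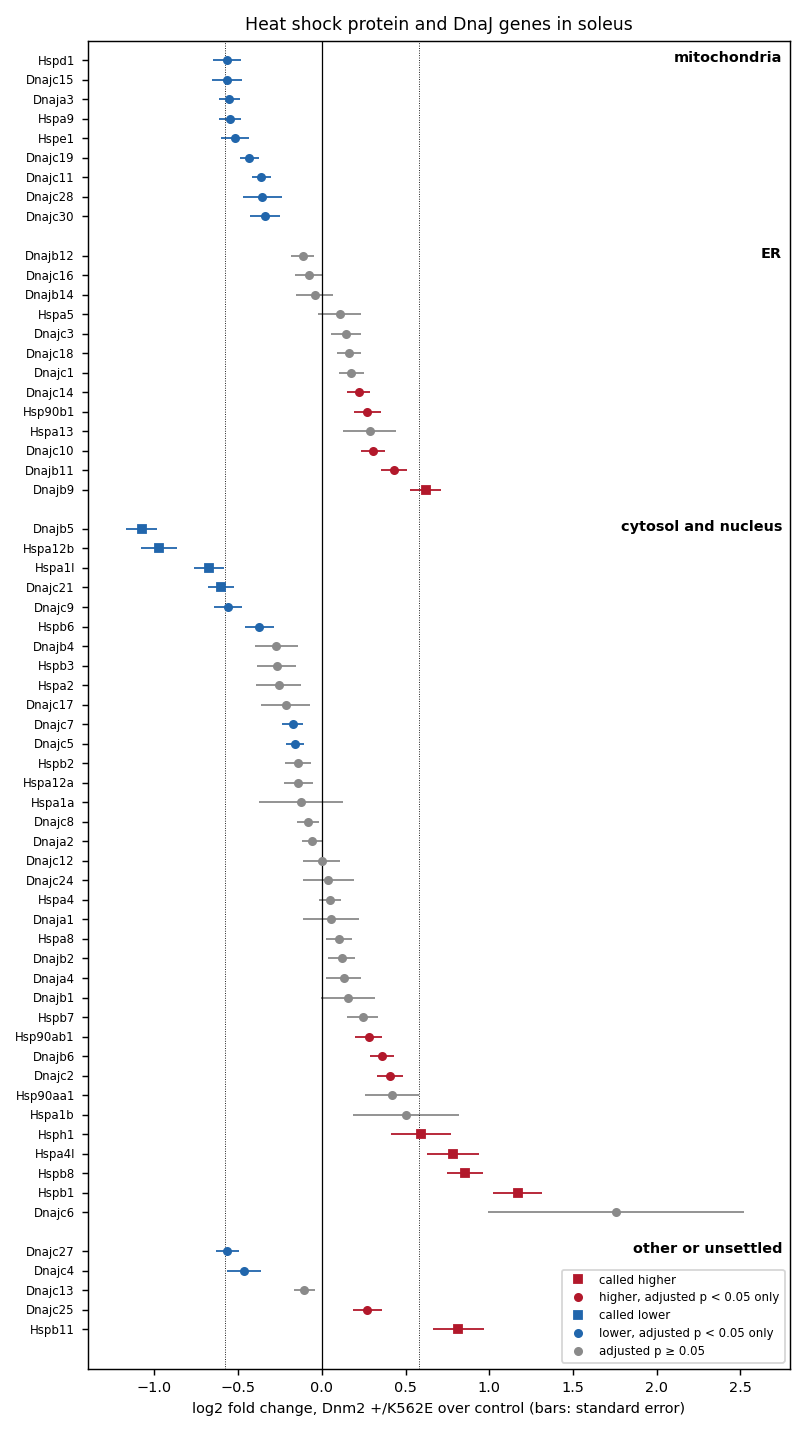
Log2 fold change (Dnm2 +/K562E over control) of the 63 tested members by compartment, with standard errors; squares were called, coloured circles passed the adjusted p alone, grey circles did not pass, and dotted lines mark a log2 fold change of 0.58 in either direction. All 9 mitochondrial members lie between -0.57 and -0.34.

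The mitochondrial chaperones were lower in Dnm2 +/K562E muscle throughout. Their summed level was 1090.2, 1077, 1058 and 999 normalized CPM in controls and 733, 679.6, 722 and 801 in Dnm2 +/K562E mice, without overlap, and the median log2 fold change of the 9 members was -0.52. None reached the fold threshold of a call, Hspd1 and Dnajc15 being nearest to it. Hspd1, Hspa9, Dnaja3 and Dnajc15 were called lower without control 4 and without mutant 4, and Hspd1 also without mutant 1.

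Hspa9 (ENSMUSG00000024359), the mitochondrial HSP70 that pulls imported proteins into the matrix, held 47.4% of the mitochondrial sum. It was at 517, 525, 503 and 471 normalized CPM in controls and at 338, 317, 345 and 376 in Dnm2 +/K562E mice, so that its genotypes were widely apart. Its log2 fold change was -0.55 ± 0.067 (adjusted p = 8.39e-05). Imported proteins are folded in the chaperonin chamber of Hspd1 (HSP60, ENSMUSG00000025980) with its lid Hspe1 (HSP10, ENSMUSG00000073676), the gene pair with the shared run of heat shock units shown above. Hspd1 was at 195, 181, 179 and 171 normalized CPM in controls and 130.1, 111, 111 and 139 in mutants, and Hspe1 at 70.2, 62.1, 63.0 and 62.0 and 47.7, 38.2, 45.4 and 48.5. Both pairs of groups were apart, and in both genes mutants 2 and 3 were the lowest. The log2 fold change was -0.57 ± 0.083 for Hspd1 (adjusted p = 0.000285) and -0.52 ± 0.083 for Hspe1 (adjusted p = 0.000545). Much of Hspd1 (53.1% of its 31-base stretches, mostly in the pseudogene Hspd1-ps3) and 30.5% of Hspe1 also occur in other annotated genes, and their exons overlap by 112 bases, so that the levels of both are less certain than that of Hspa9, which shares 9.66%.

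The DnaJ partners of this compartment fell alongside. Dnaja3, the main DnaJ protein of the matrix, was at 107, 107, 107 and 99.0 normalized CPM in controls and 66.8, 69.3, 72.6 and 77.4 in mutants, and its log2 fold change was -0.55 ± 0.063 (adjusted p = 5.14e-05). Dnajc15 and Dnajc19, which sit at the import channel of the inner membrane, had log2 fold changes of -0.57 ± 0.091 (adjusted p = 0.00053) and -0.43 ± 0.056 (adjusted p = 0.000134), and without control 1 Dnajc15 was called lower (-0.62). In Dnajc19 the mutants lay close together, between 31.8 and 33.6 normalized CPM. Dnajc11, a partner of the cristae-organizing MICOS complex, changed by -0.36 ± 0.058 (adjusted p = 0.000559), Dnajc30 by -0.34 ± 0.087 (adjusted p = 0.00907) and Dnajc28 by -0.36 ± 0.12 (adjusted p = 0.0291). Dnajc28 was the one mitochondrial member whose groups overlapped, through mutant 4, and without control 1 it did not pass (log2 fold change -0.26). It passed in 10 of 17 alternatives (adjusted p from 0.0136 to 0.293). With library size alone Dnajc11 (-0.15), Dnajc30 (-0.13) and Dnajc28 (-0.15) did not pass. For Dnajc30, 26.7% of the sequence is shared, mainly with Bud23 on the opposite strand.

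Other nuclear genes of mitochondria were lower in the same mice. The summed level of Ndufs1, Sdhb, Uqcrc2, Cox4i1 and Atp5a1, subunits of the respiratory chain and ATP synthase, was 5126 ± 303 normalized CPM in controls and 2917 ± 96.3 in Dnm2 +/K562E mice, 0.569 times the control mean, whereas the mitochondrial chaperones were at 0.695 times and the muscle markers at 0.659 times. All 5 subunits were called lower. Among 7 further folding and protease genes of mitochondria 5 fell, against 21.7% of all tested genes. They were Trap1, the mitochondrial HSP90 (-0.38 ± 0.057, adjusted p = 0.000352), Clpb, Clpp, Clpx and Lonp1, with log2 fold changes between -0.42 and -0.23. Hscb and Htra2 did not pass. With library size alone, 2 of the 7 passed as lower and 6 of the 9 mitochondrial chaperones still did, against 10.7% of all genes, and all 9 kept a lower mean. The part of the muscle fibre content in these differences was not tested.

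**Figure D3:**
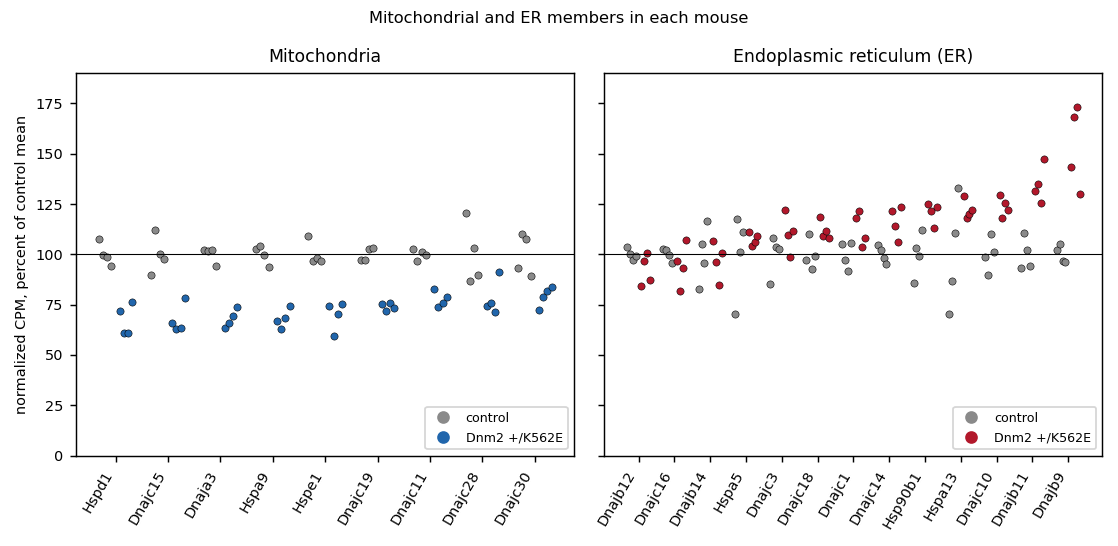
Normalized CPM of the mitochondrial and ER members in each mouse, as percent of the control mean of the gene (line at 100); grey points are controls 1 to 4, coloured points Dnm2 +/K562E mice 1 to 4, left to right. The mutants lie below 100 for every mitochondrial member, while the ER members run from the slightly lower mean of Dnajb12, which did not pass, to the rise of Dnajb9.

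Of the 5 ER members that rose 4 were DnaJ proteins, which make up 10 of the 13. Dnajb9 (ERdj4, ENSMUSG00000014905, chr12:44205559-44210326), a cofactor of the ER HSP70 that is known as a target of the unfolded protein response, was the only ER member called. It was at 42.6, 43.9, 40.5 and 40.2 normalized CPM in controls and 59.9, 70.4, 72.4 and 54.3 in Dnm2 +/K562E mice. All mutants lay above all controls, mutants 2 and 3 highest, and the log2 fold change was 0.62 ± 0.092 (adjusted p = 0.00031), close enough to the threshold that it fell under 0.58 without mutant 2 (0.57) or mutant 3 (0.56). Dnajb11 (ERdj3), which binds clients of the secretory pathway, was at 32.5, 38.5, 35.6 and 32.8 normalized CPM in controls and 45.8, 46.9, 43.7 and 51.4 in mutants, again apart, and changed on the log2 scale by 0.43 ± 0.077 (adjusted p = 0.00105). Dnajc10 (ERdj5), a reductase that opens disulfide bonds of misfolded proteins, rose by 0.31 ± 0.071 (adjusted p = 0.0052) and Dnajc14, of the ER membrane, by 0.22 ± 0.068 (adjusted p = 0.022), the latter in 11 of 17 alternatives (adjusted p from 0.000436 to 0.0621).

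Of the most abundant ER members, Hsp90b1 rose and Hspa5 did not pass. Hsp90b1 (GRP94), the ER HSP90, was at 203, 244, 234 and 265 normalized CPM in controls and 295, 287, 268 and 292 in mutants. The mutants lay just above the highest control, and the log2 fold change was 0.27 ± 0.080 (adjusted p = 0.018) and 0.20 without control 1. Hspa5 (BiP), the ER HSP70 whose promoter carries the ER stress element shown above, was at 197, 328, 283 and 310.2 normalized CPM in controls and 311, 291, 297 and 306 in mutants. Control 1 was low, the other controls spread around the mutants, and the log2 fold change of 0.11 ± 0.13 did not pass (adjusted p = 0.534) and was -0.036 without control 1. Dnajc3, the third gene with that element and a cochaperone that also inhibits the kinase PERK, did not pass either (0.14 ± 0.088, adjusted p = 0.211). The remaining members Hspa13, Dnajc1, Dnajc18, Dnajb14, Dnajc16 and Dnajb12 did not pass, with log2 fold changes from -0.12 for Dnajb12 to 0.29 for Hspa13. The value of Hspa13 was 0.15 without control 1. The median over the 13 was 0.18.

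Genes of protein folding in the ER outside these families rose in part. In a list of 17, 8 rose and none fell, against 22.2% and 21.7% of all tested genes. They were the lectin chaperones Calr (0.40 ± 0.080, adjusted p = 0.00204) and Canx, the disulfide isomerases Pdia3, Pdia4, Pdia6 and P4hb, the translocon partner Sec63 and Eif2ak3, which encodes PERK, with log2 fold changes from 0.30 to 0.48. The count was 13 with library size alone, where 40.1% of all genes rose, and 6 without control 3 or without mutant 1. The stress-induced genes Herpud1, Creld2, Sdf2l1, Xbp1 and Manf did not pass, nor did the sensors Atf6 and Ern1 and the oxidases Ero1l and Ero1lb. Of the exchange factors of the ER HSP70, Sil1 rose (0.32 ± 0.10, adjusted p = 0.0207) and Hyou1 did not pass (0.043 ± 0.14, adjusted p = 0.832). The fibroblast markers, genes of secretory cells, were 2.24 times the control mean in these mice, and their part in the rise of ER genes was not tested.

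Among small heat shock proteins, which hold unfolded clients, 3 of 7 tested genes were called higher and 1 fell, or 2 of 6 and 1 without Hspb11, which has another role. Of all tested genes 12.9% were called higher and 21.7% fell. Hspb1 (HSP25, ENSMUSG00000004951, chr5:135887919-135889563), which binds actin and desmin in muscle, was at 168, 223, 228 and 235 normalized CPM in controls and at 402, 450.0, 632 and 441 in Dnm2 +/K562E mice. The lowest mutant was far above the highest control and mutant 3 was highest. Its log2 fold change of 1.17 ± 0.15 (adjusted p = 0.000103), or 2.25-fold, was the largest of the 10 called members, and it was 1.06 without control 1. The sequence of Hspb1 is shared for 55.4% with other annotated genes, chiefly the pseudogene Hsp25-ps1, so its absolute level is uncertain.

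Hspb8 (HSP22, ENSMUSG00000041548, chr5:116408491-116422864), which works with BAG3 in the removal of damaged filamin from the Z-disk, was at 235, 299, 302 and 324 normalized CPM in controls and 559, 436, 557 and 549 in mutants. Groups were apart, with mutant 2 below the other mutants. The log2 fold change was 0.86 ± 0.11 (adjusted p = 0.000123), and no 31-base stretch of Hspb8 occurs in another gene. Its partner Bag3 was at 255 ± 13.1 normalized CPM in controls and 243 ± 16.0 in mutants and did not pass (-0.070 ± 0.065, adjusted p = 0.412), and the ubiquitin ligase of this pathway, Stub1 (CHIP), fell (-0.29 ± 0.070, adjusted p = 0.00666), although not with library size alone (-0.078, adjusted p = 0.326, within a range from 0.00115 to 0.326 over the alternatives).

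Of the most abundant small heat shock proteins Hspb6 fell, Cryab rose and Hspb7 did not pass. Hspb6 (HSP20), a partner of actin-binding proteins in muscle, was at 2502, 2403, 2447 and 2437 normalized CPM in controls and 1657, 1938, 2185 and 1777 in mutants. Controls were tightly grouped and every mutant was below them. The log2 fold change was -0.37 ± 0.085 (adjusted p = 0.00452), which did not pass with library size alone (-0.16, adjusted p = 0.115, within a range from 0.000119 to 0.115). Hspb7 (cvHSP), a filamin C partner of heart and skeletal muscle, was at 2993, 2738, 2827 and 2598 normalized CPM in controls and 2958, 3204, 3906 and 3154 in mutants. Mutant 1 lay among the controls, and the log2 fold change of 0.24 ± 0.092 did not pass (adjusted p = 0.0501), but passed as higher in 6 of 17 alternatives, among them DESeq2 and the fit without control 1. Cryab, the alpha B-crystallin of the same protein family under another name, rose (0.39 ± 0.087, adjusted p = 0.00402) from 1360.5 ± 100.4 to 1783 ± 184 normalized CPM. Hspb2 (-0.14 ± 0.078, adjusted p = 0.155) and Hspb3 (-0.27 ± 0.12, adjusted p = 0.0818), which form a complex in muscle, did not pass, and 26.7% of Hspb2 is shared with Cryab, which overlaps it on the opposite strand. Without control 1, Hspb3 passed as lower (log2 fold change -0.37).

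Hspb11 (ENSMUSG00000063172, chr4:107253593-107279938), named with this family but known as IFT25 of the transport machinery of cilia, was rare, at 2.62, 3.00, 3.07 and 3.06 normalized CPM in controls and 5.54, 4.11, 5.25 and 5.84 in mutants. The groups were apart at a log2 fold change of 0.82 ± 0.15 (adjusted p = 0.00128), on raw counts between 88 and 220 per mouse.

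All 3 HSP90 genes among the members had a higher mean in Dnm2 +/K562E mice, and 2 passed, against 22.2% of all tested genes that rose. Trap1, the mitochondrial HSP90, which the choice by symbol does not include, fell (-0.38 ± 0.057, adjusted p = 0.000352). Hsp90ab1, the constitutive cytosolic form, was at 831, 1039, 1008 and 983 normalized CPM in controls and 1223, 1152, 1068 and 1244 in mutants. Mutants lay above the controls, by a log2 fold change of 0.28 ± 0.082 (adjusted p = 0.0179), or 0.21 without control 1. Hsp90aa1, the stress-induced form, was at 76.7, 136, 124 and 118 and 173, 125, 139 and 171, with mutants 1, 3 and 4 above all controls and mutant 2 among them. Its log2 fold change of 0.42 ± 0.16 did not pass (adjusted p = 0.0583), and it passed as higher in 6 of 17 alternatives. Without control 1 it was smaller and did not pass (0.26, adjusted p = 0.0757). For Hsp90aa1 51.5% of the sequence is shared, mostly with the pseudogene Gm12346.

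Of 17 listed cochaperones of HSP90 none rose and 8 fell, against 22.2% and 21.7% of all tested genes. Called lower were 2 (against 7.85%), namely Fkbp4, an immunophilin of steroid receptor complexes (-0.67 ± 0.084, adjusted p = 0.000104), and Aarsd1 (-0.68 ± 0.085, adjusted p = 9.88e-05), of which a muscle form binds HSP90. Unc45b, the myosin chaperone, was at 180.1 ± 6.28 normalized CPM in controls and 141 ± 12.3 in mutants and fell (-0.36 ± 0.069, adjusted p = 0.00175), although not with library size alone (-0.15, adjusted p = 0.0868, within a range from 2.54e-05 to 0.0868). Stip1, which links HSP70 to HSP90, did not pass (-0.12 ± 0.10, adjusted p = 0.332), and it was 0.087 with library size alone. Under that scaling 2 of the 17 rose and 2 fell, against 40.1% and 10.7% of all genes, and none was called, so the count of lower partners depends on the scaling.

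Of the 3 HSP110 genes 2 were called higher, against 12.9% of all tested genes, and the call of Hsph1 depended on single mice. Hsph1 (HSP105, ENSMUSG00000029657, chr5:149614287-149636376), a stress-induced exchange factor with a run of 3 heat shock units in its promoter, was at 54.5, 79.6, 72.0 and 76.1 normalized CPM in controls and 131, 80.9, 82.9 and 131 in Dnm2 +/K562E mice. The mutants formed 2 levels, mice 1 and 4 near 131 and mice 2 and 3 just above the highest control. Its log2 fold change was 0.59 ± 0.18 (adjusted p = 0.0195). The call was lost without control 1 (log2 fold change 0.48, adjusted p = 0.0376), without mutant 1 (adjusted p = 0.0626) and without mutant 4 (adjusted p = 0.0598), within a range of adjusted p from 0.00315 to 0.0626 over all alternatives. With all mice kept, the call of Hsph1 was also lost with either replicate block (log2 fold change 0.57, adjusted p = 0.0541 by title numbers). Hspa4l (ENSMUSG00000025757, chr3:40744495-40796103), its close relative, was less abundant, at 11.5, 16.7, 15.6 and 14.0 and 29.8, 21.2, 19.8 and 28.8, and mutants 1 and 4 were again highest. Groups did not overlap, and the log2 fold change was 0.79 ± 0.15 (adjusted p = 0.00195). Hspa4, the constitutive form, did not pass (0.048 ± 0.064, adjusted p = 0.575). It passed as higher with library size alone (0.26).

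**Figure D4:**
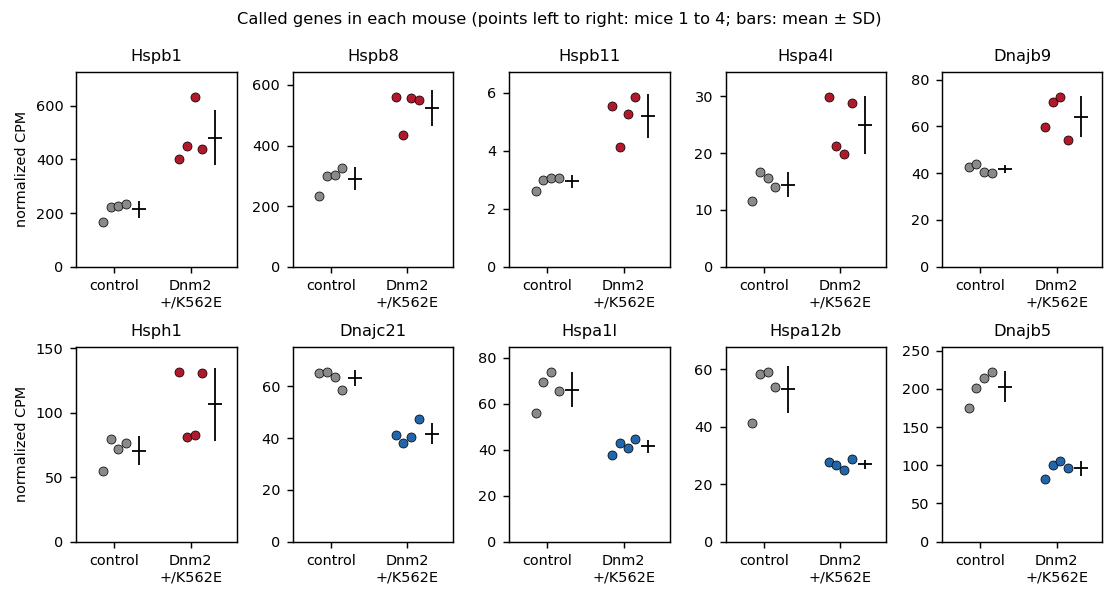
Normalized CPM of the 10 called members in each mouse, with mean ± SD beside the points; each axis starts at 0. No mutant overlaps a control in any panel, and Hsph1 has the smallest gap in proportion to its level (a ratio of 1.02 between the lowest mutant and the highest control).

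No HSP70 gene of the cytosol rose. Hspa8, the constitutive form and per length the most abundant HSP70, was at 1113, 1332, 1378 and 1325 normalized CPM in controls and 1419, 1290.0, 1462 and 1348 in mutants, overlapping, and did not pass (0.10 ± 0.079, adjusted p = 0.327). With library size alone it passed as higher (0.31, adjusted p = 0.00685, within a range from 0.00685 to 0.764). The stress-induced pair is held in near-identical genes that share 70.1% (Hspa1a) and 68.1% (Hspa1b) of their sequence with other genes, mostly each other, so that their split is uncertain. Hspa1a was at 16.7, 46.1, 39.9 and 45.7 normalized CPM in controls and 36.3, 28.1, 37.3 and 34.3 in mutants, and Hspa1b at 9.29, 35.6, 32.9 and 33.1 and 43.2, 32.4, 45.2 and 36.9. Control 1 was far below all other mice in both. The log2 fold changes were -0.13 ± 0.25 (adjusted p = 0.715) and 0.51 ± 0.32 (adjusted p = 0.22). Without control 1, Hspa1a passed as lower (-0.37, adjusted p = 0.0099, within a range from 0.0099 to 0.984) and Hspa1b did not pass (0.21).

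The other HSP70 genes that changed were lower. Hspa12b (ENSMUSG00000074793, chr2:131127280-131146321), a distant HSP70 known from endothelial cells, was at 41.1, 58.2, 58.9 and 53.7 normalized CPM in controls and 27.7, 26.7, 24.9 and 28.6 in mutants. The mutants were tightly grouped at about the 0.51-fold level of the controls, at a log2 fold change of -0.97 ± 0.11 (adjusted p = 4.38e-05). Endothelial markers were lower in the same mice, at 0.766 times the control sum, with Kdr called lower (-0.64 ± 0.082), and their part in the value of Hspa12b was not tested. Hspa1l (ENSMUSG00000007033, chr17:34972703-34979285), a relative of Hspa1a best known from testis, was at 55.9, 69.5, 73.8 and 65.7 normalized CPM in controls and 37.7, 43.0, 40.8 and 44.6 in mutants, with no overlap, and its log2 fold change was -0.67 ± 0.090 (adjusted p = 0.00016), or -0.46 and short of a call with library size alone. As 71.9% of its exon length lies opposite the antisense gene Gm10501 and the use of strand in counting is not given in the sources used here, reads of the 2 genes cannot be told apart. Hspa2 (-0.26 ± 0.13, adjusted p = 0.143) and Hspa12a (-0.14 ± 0.086, adjusted p = 0.207) did not pass.

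**Figure D5:**
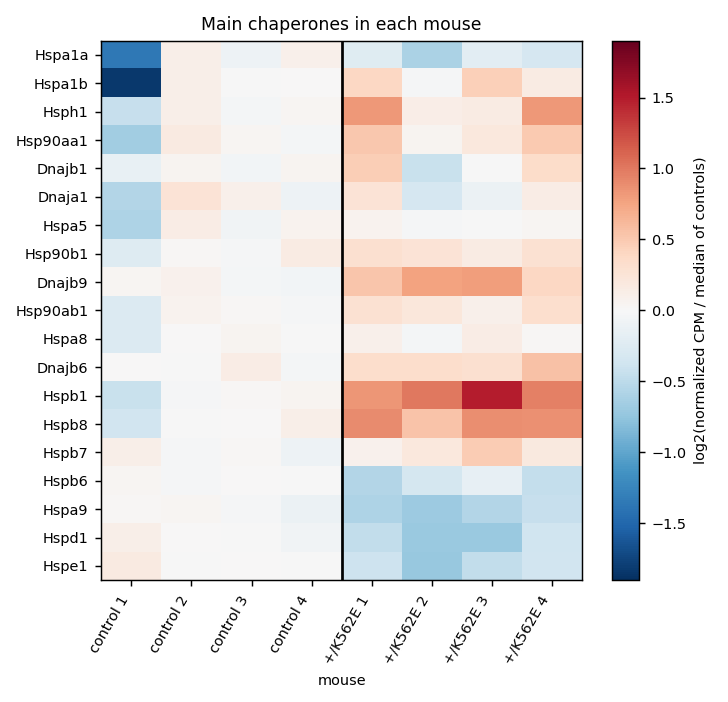
Log2 ratio of normalized CPM to the median of the 4 controls for 19 main chaperones (rows) in each mouse (columns); red is above and blue below the control median. Control 1 is low for Hspa1a (-1.36) and Hspa1b (-1.83), and the red of Hspb1 and Hspb8 and the blue of Hspa9, Hspd1 and Hspe1 fill all 4 mutant columns.

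Of the 18 tested DnaJ genes of the cytosol and nucleus 2 rose, 5 fell and 11 did not pass, so that 38.9% passed, against 43.8% of all tested genes. With library size alone 5 rose (27.8%, against 40.1% of all genes) and 3 fell (16.7%, against 10.7%), with Dnaja2, Dnaja4 and Dnajb2 added to those that rose. Dnajb5 (ENSMUSG00000036052, chr4:42949814-42959425), an HSP40 protein known to shuttle with the histone deacetylase HDAC4 in heart, fell most of all members. It was at 175, 201, 214 and 222 normalized CPM in controls and 82.5, 100.3, 105 and 97.1 in mutants, with a wide gap between the groups, at a log2 fold change of -1.08 ± 0.093 (adjusted p = 8.0e-06). Dnajc21 (ENSMUSG00000044224, chr15:10446756-10470516), a factor of 60S ribosome maturation, was at 65.2, 65.4, 63.7 and 58.7 and 41.2, 38.0, 40.2 and 47.4, also apart, and changed by -0.60 ± 0.077 (adjusted p = 0.000116). It fell short of a call with library size alone (-0.39) and without mutant 2 (-0.56). Just short of the fold threshold was Dnajc9, a histone chaperone (-0.56 ± 0.083, adjusted p = 0.000309), which was called lower without control 2 and without mutant 3. Dnajc7 (-0.17 ± 0.063, adjusted p = 0.0438) and Dnajc5, the cysteine string protein of vesicle release (-0.16 ± 0.056, adjusted p = 0.0366), passed as slightly lower, but their means were higher in mutants with library size alone (0.038 and 0.051). Dnajc7 passed in 5 of 17 alternatives (adjusted p from 0.0194 to 0.595) and did not pass without control 1 (adjusted p = 0.0842), and Dnajc5 passed in 6 of 17 (from 0.0214 to 0.499).

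Dnajb6, which guards against aggregation and is located at the Z-disk, was at 55.5, 55.1, 60.8 and 53.7 normalized CPM in controls and 70.0, 69.9, 68.3 and 81.2 in Dnm2 +/K562E mice. Mutants lay above controls, mutant 4 highest, and the log2 fold change was 0.36 ± 0.072 (adjusted p = 0.00209). Dnajc2, a partner of HSP70 at the ribosome, rose by 0.41 ± 0.077 (adjusted p = 0.00151). The main stress-induced DnaJ proteins did not pass: Dnajb1 (0.16 ± 0.16, adjusted p = 0.466) and Dnaja1 (0.054 ± 0.17, adjusted p = 0.814), whose mean was lower in mutants without control 1 (-0.090) or mutant 1 (-0.037). Neither did Dnaja2, Dnaja4, Dnajb2, Dnajb4, Dnajc8, Dnajc12, Dnajc17 and Dnajc24, with log2 fold changes from -0.27 for Dnajb4 to 0.13 for Dnaja4. Dnajb4 passed as lower without control 1 (-0.41). Dnajc6, the auxilin of clathrin uncoating, had the highest fold change of all members (log2 1.76 ± 0.77) on raw counts of 8, 0, 0 and 6 in controls and 10, 15, 13 and 16 in mutants and did not pass (adjusted p = 0.0848). It was called higher in 2 of 16 alternatives, with edgeR's exact test (adjusted p = 0.0166) and without control 1 (log2 fold change 2.57, adjusted p = 0.0329), within a range from 0.0166 to 0.170.

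Among the members of other or unsettled places, Dnajc27, a Rab-like GTPase with a J domain, fell (-0.56 ± 0.070, adjusted p = 9.34e-05), as did Dnajc4 (-0.46 ± 0.10, adjusted p = 0.0036). Without control 1 Dnajc27 was called lower (log2 fold change -0.60). Dnajc25 rose (0.27 ± 0.087, adjusted p = 0.0265, but not without control 1), and Dnajc13, of endosomes, did not pass (-0.10 ± 0.064, adjusted p = 0.208). The 8 members not tested had few or no reads: Dnajb8, Dnajc5b, Dnajc5g and Dnajc22 had 0 counts in all 8 mice, which allows a level of up to 0.0614 to 0.0898 CPM, before TMM scaling, depending on the depth of the mouse (3 counts, counting error only), and Dnajb3, Dnajb13, Dnajb7 and Hspb9 had 43, 17, 4 and 2 counts over all mice.

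Of the 3 tested transcription factors of the heat shock family Hsf1 and Hsf2 fell. Hsf1, its main activator, was at 40.3, 44.5, 48.8 and 44.1 normalized CPM in controls and 35.3, 32.1, 33.2 and 35.4 in mutants, at a log2 fold change of -0.39 ± 0.072 (adjusted p = 0.00135), and Hsf2 changed by -0.37 ± 0.075 (adjusted p = 0.00216). For both genes the groups were apart. For Hsf1 the difference did not pass with library size alone (-0.18, adjusted p = 0.0592, the highest over the alternatives from 2.82e-05 upward), and under that scaling no heat shock factor passed. Hsf4 did not pass and Hsf5 was too rare to test. Of 11 nucleotide exchange factors 2 rose, Bag1 (0.43 ± 0.070, adjusted p = 0.000586) and Sil1, and 4 fell, Hspbp1 (-0.48 ± 0.082, adjusted p = 0.000837), Bag2, Bag4 and Bag6, against 22.2% and 21.7% of all tested genes. None of the 8 subunits of TRiC, the cytosolic chaperonin that folds actin and tubulin, passed, with log2 fold changes from -0.022 for Cct7 to 0.18 for Cct3, whereas all 8 passed as higher with library size alone. Over 66 listed partners of the chaperones 64 were tested, 11 rose (17.2%, against 22.2% of all tested genes) and 19 fell (29.7%, against 21.7%), and the median log2 fold change was -0.070. With library size alone 26 rose (40.6%, against 40.1%) and 5 fell (7.81%, against 10.7%), so that the direction of the list depends on the scaling.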

How the data were processed

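RNA-seq libraries of the soleus of 8 mice were analysed. The authors deposited raw read counts per gene, one table per mouse: reads were trimmed with Trimmomatic 0.33, aligned to GRCm38.p5 with STAR 2.5.1b and counted with featureCounts at primary alignments of a mapping quality of at least 10, also where a read overlapped several genes. Near-identical copies can therefore lose reads, and overlapping genes share them. For the libraries, the study's text names poly A enrichment, and the sample labels name a stranded total RNA kit. The use of strand in counting is not given in the sources used here.

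Symbols, positions and merged exon lengths came from GENCODE M21 (22647 of 22880 identifiers matched). Counts were tested with edgeR 4.0.16 in R 4.3.3: TMM factors, filterByExpr (minimum count 10, minimum total 15), glmQLFit and glmQLFTest, with Benjamini-Hochberg adjustment over 14001 genes and no covariate. The thresholds, an adjusted p of 0.05 and a log2 fold change of 0.58, are those of the study. Normalized CPM are counts scaled by library size times TMM factor. Depth ran from 33407430 to 48832814 counts per mouse. No 2 mice of a genotype had counts equal within sampling noise (chi-square per degree of freedom of at least 12.6), and all 8 were kept. The fit was tested on simulated data.

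The members, compartments and lists were chosen with earlier results of these data known. Named were all called members, the most abundant per compartment, 19 main chaperones, members at the ends of ranges, called or main partners, Dnm2, and the other members so that each is accounted for. Partners and markers outside these were named after their values were seen. A further marker list is not reported here. Read sharing is the share of 31-base stretches of a gene's transcripts found in transcripts of other genes. Promoters from RefSeq (300 bases) were not found for Dnajc11, Dnajc12, Dnajc18, Dnajc2, Dnajc22, Dnajc30, Dnajc5, Dnajc5b, Hsp90aa1, Hsp90ab1, Hspa13, Hspa8, Hspa9 and Hspb2.

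Alternatives were edgeR's exact test, DESeq2 1.42.0, scaling by median-ratio factors or by library size alone, no mitochondrially encoded genes, 2 other count filters, a replicate block by either set of mouse numbers, no fold threshold, and leaving out each mouse.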

Additional observations from a re-analysis of the deposited data

Results flagged for a closer look

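This check covered 38 genes: the main chaperones, called members, the most abundant member of each compartment, main partners and Dnm2. Other genes named in the text were not examined in this way. For each of the 38 genes and each genotype, the mouse farthest from the other 3 was compared with the whole range of the 4. Of 76 such groups 7 had a mouse standing apart by Dixon's 95% limit, of which chance flags about 1 in 20. The reason was not tested for any of them.

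Control 1 stood apart in 4 of the 7. Its Hspa1b level was 9.29 normalized CPM against 32.9 to 35.6 in the other controls, its Hspb11 level 2.62 against 3.00 to 3.07, and its level of Stip1, the HSP70-HSP90 adaptor, 95.5 against 117 to 121. In Hspe1, the mitochondrial HSP10, it was the highest control, at 70.2 against 62.0 to 63.0. Among mutants, mouse 4 was high for Dnajb6 (81.2 against 68.3 to 70.0) and mouse 2 low for Hspb8 (436 against 549 to 559), and both mice kept above all controls. Control 3 was low for Dnm2, at 59.2 normalized CPM against 68.5 to 68.8.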

How the results depend on the processing

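The number of members called higher was 6, between 5 and 6 when 1 mouse was left out, 9 with library size alone and 14 by adjusted p without a fold threshold. The number called lower was 4, between 3 and 9 when 1 mouse was left out (8 without control 4, 9 without Dnm2 +/K562E mouse 4, with Hspd1, Hspa9, Dnaja3 and Dnajc15 added in both), 2 with library size alone (Dnajb5 and Hspa12b) and 19 by adjusted p alone. Hspb1, Hspb8, Hspb11, Hspa4l, Dnajb5 and Hspa12b were called in all of these settings. Dnajc21 was lost without Dnm2 +/K562E mouse 2. The cause was not tested. Over the named genes (the main chaperones, called members and main partners) and the counts of other lists, 850 kept their direction and their side of the adjusted p of 0.05 (or, for counts, their size within 1.5 times), 15 newly passed, 7 no longer passed, 8 turned in sign and 4 counts moved.

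With library size alone the mean turned from lower to higher in 12 of the 63 members, 2 of which had passed as lower (Dnajc5, to 0.051, and Dnajc7, to 0.038). The other 10, among them Hspa1a (0.082), had not passed, nor had the partners Bag3 (0.14) and Stip1 (0.087). With 1 mouse left out, Dnaja1 ran from -0.090 to 0.17 (below 0 without control 1 and, at -0.037, without Dnm2 +/K562E mouse 1), Hspa5 from -0.036 to 0.19 (below 0 without control 1) and Hyou1 from -0.093 to 0.16 (below 0 without control 1 and, at -0.012, without Dnm2 +/K562E mouse 1).

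Mouse numbers are shared by the genotypes, but same-numbered mice did not deviate together (mean correlation -0.114 for the title numbers and -0.0302 for the description numbers). With either replicate block 5 members were called higher and 4 lower, Hsph1 being lost (log2 fold change 0.57, adjusted p = 0.0541 by title numbers). By adjusted p 11 members rose and 16 fell with the title numbers and 13 and 17 with the description numbers, against 14 and 19 without a block. Of all tested genes 18.6% rose and 18% fell with the title numbers and 20.8% and 20.3% with the description numbers, against 22.2% and 21.7%. In the ER 4 of 13 members rose with either block. Dnajc14 (0.0569), Dnajc25 (0.0738), Dnajc5 (0.0897), Dnajc7 (0.119) and Dnajc28 (0.0666) did not pass with the title numbers. Depth limits Dnajc6, Hspb11 and the 8 untested members, and read sharing limits Hspb1, Hspd1, Hspa1a, Hspa1b and Hsp90aa1. Sharing also limits Hspa1l (71.7%, mainly with Gm10501), Hspa8 (44.8%, with Gm15459 and others) and Dnaja4 (43.3%, mainly with Wdr61). In all, 23 members shared over 10%. Of those that rose, Dnajb6 shared 22.7% (with Gm2541 and others) and Dnajc14 21.0% (mainly with Ormdl2, on the opposite strand).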

Other observations

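Immediate early genes, which are switched on within minutes of a stimulus, were also listed. Of 7, Junb and Fos were called higher in Dnm2 +/K562E mice and Jun lower, against 12.9% and 7.85% of all tested genes. Fosb, Egr1, Atf3 and Ier2 did not pass (edgeR's quasi-likelihood test, Benjamini-Hochberg adjustment). For Fos the groups overlapped, with mutant 2 at 11.1 normalized CPM and the highest control at 12.3. The log2 fold change was 1.28 ± 0.33 for Junb (adjusted p = 0.00982), 1.17 ± 0.32 for Fos (adjusted p = 0.0125) and -0.69 ± 0.11 for Jun (adjusted p = 0.000444). The summed level of the 7 was 243, 207, 195 and 241 normalized CPM in controls 1 to 4 and 197, 228, 288 and 215 in Dnm2 +/K562E mice 1 to 4. Jun had the highest mean in both genotypes, although in mutant 3 Egr1 (81.1) was above Jun (76.9). Single genes, named here after their values were seen, went different ways in control 1, the mouse lowest for Hspa1a and Hspa1b. It was the highest control for Egr1, at 78.5 normalized CPM against 11.4, 11.2 and 20.5 in controls 2 to 4, and for Junb, at 24.8 against 7.07, 8.78 and 10.2. It was the lowest control for Atf3, at 6.91 with a control median of 30.1 and a highest control of 43.8, and for Jun, at 103 against 143, 125 and 141. The part of these differences in the chaperone values of control 1 was not tested.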
